A study of Mus musculus with 128 samples.

Results

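Single mouse embryos at the 4-cell stage were compared between 2 genotypes that differ in whether the egg carried Kdm4a. All 16 libraries labelled 4-cell wildtype and all 16 labelled 4-cell knockout were used, 32 of the 128 libraries in the series, which also holds MII oocytes (mature unfertilized eggs) and embryos of 2 and 8 cells. Eggs and embryos were of the C57BL/6 strain, and 4-cell embryos were collected 2.5 days post fertilization. The wildtype embryos came from wildtype eggs and the knockout embryos from Kdm4a knockout eggs, and both kinds of egg were fertilized with Kdm4a knockout sperm. The labels write the wildtype genotype as m+/p-, so the control embryos carried the maternal copy alone and also lacked the paternal one. Lack of Kdm4a during egg growth and lack of a Kdm4a copy in the embryo therefore cannot be told apart in these groups. Both genotypes were collected when the control embryos reached the stage, and each library is polyA RNA from 1 embryo without its zona pellucida. The labels do not give the number of females, the deleted exons or the sex of the embryos, so p-values measure the spread between these embryos.

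Kdm4a encodes a histone demethylase of the JmjC family that removes methyl groups from lysines 9 and 36 of histone H3. Methylation of lysine 9 marks silent chromatin, and methylation of lysine 36 marks the bodies of transcribed genes. The mouse egg is transcriptionally silent when it is fertilized. Its stored RNAs are degraded while the embryonic genome is switched on, with the main wave of activation at the late 2-cell stage. A 4-cell embryo therefore holds mainly embryonic transcripts and a remnant of egg transcripts.

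The 32 libraries held 1455238 to 2671024 counts. Total counts, the share of mitochondrial counts, the number of genes detected at equal depth and the share of the 50 highest genes gave Benjamini-Hochberg adjusted p of 0.970 to 0.983 over these 4 measures (two-sided permutation tests). Dppa3, a maternal-effect gene of the egg and early embryo, stood at 4291 CPM (counts scaled to a library total of 1000000) or more in every library. Pou5f1, a pluripotency factor, stayed at 3.52 CPM or less in every library, against what is known of its expression in embryos. Pou5f1 has processed pseudogenes, and how reads shared with them were counted was not given, so this value may not reflect its RNA level. Of 16 cumulus and granulosa cell markers, 5 were at 0 in all libraries, and their sum spanned 0 to 9.32 CPM (median 1.28) among wildtype and 0 to 16.5 CPM (median 2.95) among knockout libraries. Of 12 sperm markers, 4 were at 0, and the sum spanned 22.3 to 110.1 CPM (median 48.4) among wildtype and 19.7 to 114 CPM (median 59.0) among knockout libraries. Of 10 blood and somatic markers, 5 were at 0, and the sum spanned 0 to 78.1 CPM (median 10.3) among wildtype and 5.29 to 83.5 CPM (median 19.96) among knockout libraries. The medians of all 3 sums were higher in knockout. The part of these cells in the results was not tested. The summed Y-linked genes were under 1 CPM in 4 wildtype and 3 knockout libraries and at least 146 CPM in the others, so both genotypes held embryos with and without Y-linked transcripts. Wildtype replicate 11 stood apart, with a mean correlation of 0.786 to the other wildtype embryos against 0.817 to 0.872 for the other 31 libraries within their genotypes.

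Kdm4a itself, on chromosome 4 at 118136957 to 118180043 (mm10, minus strand), was near the limit of detection by the 4-cell stage. Wildtype embryos ranged from 0 to 11.1 CPM (median 3.36), knockout embryos from 0 to 4.71 CPM (median 1.36). The ranges overlapped, and 3 of 16 knockout embryos lay above the wildtype median. The mean was 4.59 ± 3.58 CPM (SD, n = 16) against 1.76 ± 1.47 CPM (n = 16; two-sided permutation p = 0.00606). Its level was too low for the test across genes at this stage. In eggs it stood at 10.9 ± 3.05 CPM in wildtype and 1.27 ± 0.904 CPM in knockout (n = 16 each), and at the 2-cell stage at 15.1 ± 4.81 and 2.65 ± 1.83 CPM (n = 16 each). Which exons the knockout allele lacks is not given, so the counts left in knockout libraries cannot be assigned to intact or truncated RNA. Of the related Kdm4 genes, Kdm4c passed the filter on low counts and had 85.7 to 263 CPM (median 137) across wildtype and 111 to 233 CPM (median 188) across knockout embryos, with a log2 fold change of 0.26 ± 0.14 (SE) and an adjusted p of 0.197.

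Loss of maternal Kdm4a went with changes in both directions across the 4-cell transcriptome. Each library is a whole embryo, so a change in some cells and a change in all of them cannot be told apart. With edgeR's quasi-likelihood test, 671 genes (8.97% of 7478 tested) were higher and 558 (7.46%) were lower in knockout embryos, 16.4% in all, at a Benjamini-Hochberg adjusted p under 0.05. The median log2 fold change of all tested genes was -0.0046. Changes were larger among the higher genes, 300 of which passed a log2 fold change of 1 in size, against 154 of the lower genes. Ranges of the genotypes did not overlap for 8 genes: Snrpn, Trim61, Mia2 and the clone RP24-177J9.4 were higher in every knockout embryo than in any wildtype embryo, and Sap30bp, Chchd2, Bud31 and Slu7 were lower in every one.

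**Figure D1:**
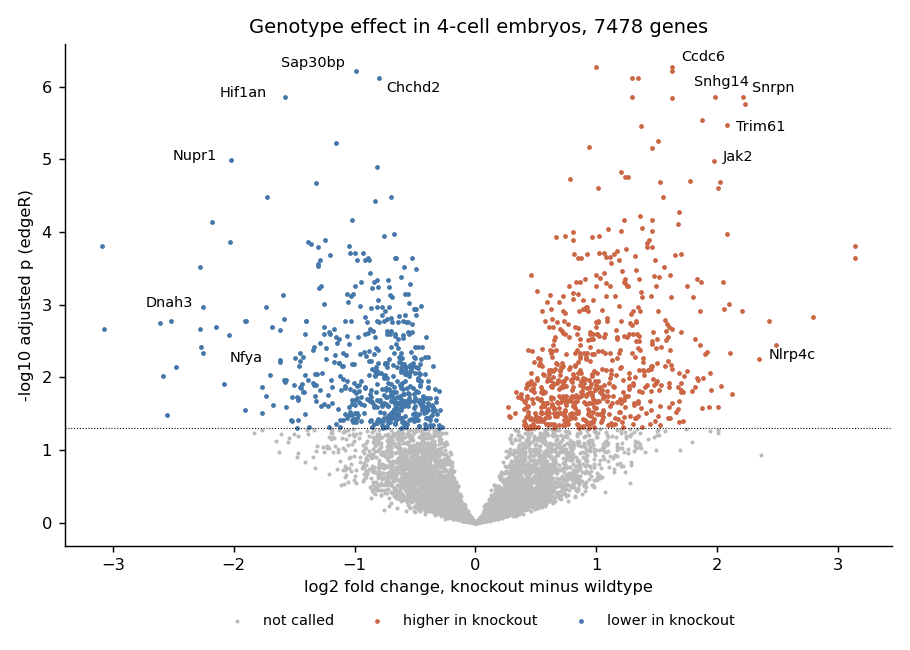
Each point is 1 of the 7478 genes tested in 4-cell embryos (16 per genotype), with the log2 fold change on the x axis and the -log10 adjusted p of edgeR on the y axis; the dotted line marks an adjusted p of 0.05. Of the 671 higher genes 300 lie beyond a log2 fold change of 1, of the 558 lower genes 154 lie beyond -1, and Snrpn and Hif1an combine a large change with a small p.

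Several higher genes lay at the Snrpn locus on chromosome 7, which is imprinted in mammals and expressed from the paternal copy. Snrpn encodes a protein of small nuclear ribonucleoproteins, Snurf is a short reading frame on the same transcript, and Snhg14 is a long non-coding RNA that continues downstream on the same strand towards Ube3a. Snrpn had 4.14 to 71.3 CPM (median 29.2) across wildtype and 82.4 to 256 CPM (median 162) across knockout embryos. Every knockout embryo was above every wildtype embryo, and the log2 fold change was 2.21 ± 0.28 (SE, edgeR adjusted p = 1.40e-06). Snhg14 had 4.28 to 24.5 CPM (median 13) across wildtype and 19.9 to 126 CPM (median 54.9) across knockout embryos (log2 fold change 1.98 ± 0.25 SE, edgeR adjusted p = 1.40e-06). Each of the 16 knockout embryos lay above the wildtype median, and the ranges overlapped. Snurf had 0.517 to 7.59 CPM (median 4.03) across wildtype and 6.63 to 22.6 CPM (median 13.9) across knockout embryos (log2 fold change 2.03 ± 0.30 SE, edgeR adjusted p = 2.05e-05), again with all 16 above the wildtype median. The clone RP24-177J9.4, which lies at the same place and was added after its values were seen, had 0.517 to 10.5 CPM (median 5.08) across wildtype and 11.1 to 37.4 CPM (median 23.0) across knockout embryos (log2 fold change 2.23 ± 0.29 SE, edgeR adjusted p = 1.73e-06). On the minus strand the annotated spans of the clone (59974149 to 60005064), Snurf (59995449 to 60005049) and Snrpn (59982495 to 60140219, mm10) overlap. Snhg14, at 59307924 to 59975759, overlaps the clone alone. Of the non-zero values of Snrpn 75.0% were not whole numbers, which shows that reads were split, so rows that overlap are not independent measurements. Whether Snhg14 is independent of Snrpn and Snurf was not tested. Ube3a, on the other strand at 59228750 to 59311536, was named after its values were seen and had a log2 fold change of 0.57 ± 0.23 (SE), with an adjusted p of 0.0813.

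RefSeq lists several start sites for this locus, and both windows that its rows share are shown because its genes rose together (GRCm38.p6, 5′ to 3′, 250 bases before to 50 after the start, CpG in capitals). The first, listed for Snrpn and Snhg14, is at chr7:60450128-60450427 on the minus strand and holds 2 CpG. It lies upstream of and outside the spans of both rows in the deposited table, so it starts transcripts that reach beyond them. The second, listed for Snrpn and Snurf, is at chr7:60005150-60005449 on the minus strand and holds 7 CpG.
Snrpn and Snhg14: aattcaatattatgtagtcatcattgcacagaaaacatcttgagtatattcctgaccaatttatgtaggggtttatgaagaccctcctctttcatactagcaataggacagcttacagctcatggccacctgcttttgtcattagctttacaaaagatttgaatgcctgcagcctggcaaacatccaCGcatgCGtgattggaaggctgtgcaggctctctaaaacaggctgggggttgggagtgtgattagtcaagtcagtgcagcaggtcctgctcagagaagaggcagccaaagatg
Snrpn and Snurf: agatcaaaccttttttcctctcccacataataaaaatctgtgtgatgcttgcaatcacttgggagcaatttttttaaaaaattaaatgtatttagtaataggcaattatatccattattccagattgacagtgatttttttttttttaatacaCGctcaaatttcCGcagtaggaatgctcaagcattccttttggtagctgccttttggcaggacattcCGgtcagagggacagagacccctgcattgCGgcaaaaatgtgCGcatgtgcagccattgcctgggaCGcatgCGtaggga

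Rises were then ranked by log2 fold change over called genes of at least 20 CPM in the higher genotype that have no clone or provisional name, and the first 12 include Snrpn and Snhg14. Nlrp4c, an oocyte gene of the NLRP family, had 0 to 75.6 CPM (median 4.59) across wildtype and 5.15 to 161 CPM (median 52.8) across knockout embryos (log2 fold change 2.35 ± 0.59 SE, edgeR adjusted p = 0.00554). Its ranges overlapped, and all 16 knockout embryos exceeded the wildtype median. Art3, a member of the ADP-ribosyltransferase family, had 0 to 14 CPM (median 2.98) across wildtype and 2.06 to 31.8 CPM (median 24.0) across knockout embryos (log2 fold change 2.09 ± 0.43 SE, edgeR adjusted p = 0.000961). Trim61, of the tripartite motif family, had 0.591 to 31.7 CPM (median 13.3) across wildtype and 37.4 to 98.4 CPM (median 56.1) across knockout embryos (log2 fold change 2.08 ± 0.28 SE, edgeR adjusted p = 3.38e-06). Its ranges did not overlap. Trap1a, an X-linked tumour antigen gene, had 0 to 58.9 CPM (median 5.84) across wildtype and 0 to 116 CPM (median 20.6) across knockout embryos (log2 fold change 2.03 ± 0.58 SE, edgeR adjusted p = 0.0132). Both genotypes included embryos at 0 for Trap1a, and 14 of 16 knockout embryos were above the wildtype median.

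Arid2 and Phf10, subunits of the PBAF form of the SWI/SNF remodeller, were both among these 12 genes. Arid2 had 3.12 to 43.4 CPM (median 8.66) across wildtype and 24.3 to 104 CPM (median 44.1) across knockout embryos (log2 fold change 2.01 ± 0.31 SE, edgeR adjusted p = 2.46e-05). Phf10 had 0 to 37.5 CPM (median 3.02) across wildtype and 1.37 to 58.5 CPM (median 25.3) across knockout embryos (log2 fold change 1.88 ± 0.51 SE, edgeR adjusted p = 0.0103). All 16 knockout embryos lay above the wildtype median for Arid2 and 15 for Phf10. Jak2, the tyrosine kinase of cytokine receptors, had 6.50 to 114 CPM (median 43.2) across wildtype and 83.9 to 438 CPM (median 187) across knockout embryos (log2 fold change 1.97 ± 0.28 SE, edgeR adjusted p = 1.05e-05). Cpeb2, which binds the cytoplasmic polyadenylation element of mRNAs, had 0 to 51.3 CPM (median 8.69) across wildtype and 6.64 to 95.7 CPM (median 46.9) across knockout embryos (log2 fold change 1.91 ± 0.47 SE, edgeR adjusted p = 0.00453). Pdk3, a kinase that inhibits pyruvate dehydrogenase, had 0 to 29.7 CPM (median 6.72) across wildtype and 5.84 to 124 CPM (median 23.2) across knockout embryos (log2 fold change 1.94 ± 0.52 SE, edgeR adjusted p = 0.00871). Jak2 exceeded the wildtype median in all 16 knockout embryos and Cpeb2 and Pdk3 in 15, with overlap of the genotypes for each. Fam199x completed the 12, with a log2 fold change of 1.88 ± 0.25 (SE, edgeR adjusted p = 2.84e-06).

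A further 8 higher genes were taken by the smallest p after those 12 were set aside, so the rule itself leaves smaller changes. Ccdc6, a coiled-coil gene, had 49.6 to 196 CPM (median 107) across wildtype and 169.8 to 628 CPM (median 311) across knockout embryos (log2 fold change 1.63 ± 0.19 SE, edgeR adjusted p = 5.31e-07). Mia2, which acts in the export of cargo from the endoplasmic reticulum, had 24.0 to 91.5 CPM (median 63.5) across wildtype and 102 to 338 CPM (median 179) across knockout embryos (log2 fold change 1.63 ± 0.19 SE, edgeR adjusted p = 6.07e-07). The lowest knockout embryo for Mia2 lay above the highest wildtype embryo, whereas the Ccdc6 ranges overlapped narrowly. Cul1, the scaffold of SCF ubiquitin ligases, had 67.1 to 347 CPM (median 182) across wildtype and 309 to 734 CPM (median 487) across knockout embryos (log2 fold change 1.34 ± 0.16 SE, edgeR adjusted p = 7.53e-07). Nckap1, a subunit of the WAVE actin regulator, had 75.0 to 226 CPM (median 137) across wildtype and 224 to 663 CPM (median 328) across knockout embryos (log2 fold change 1.29 ± 0.16 SE, edgeR adjusted p = 7.53e-07). Strn, a regulatory subunit of protein phosphatase PP2A, rose by 1.3 ± 0.16 on the log2 scale (SE, adjusted p = 1.40e-06). Usp15, a deubiquitinase, rose by 1.37 ± 0.18 (SE, adjusted p = 3.44e-06), Arap2, a GTPase-activating protein, by 1.51 ± 0.21 (SE, adjusted p = 5.53e-06) and Ube2d2a, which conjugates ubiquitin, by 0.99 ± 0.11 (SE, adjusted p = 5.31e-07; all edgeR). For each of these 8 genes all 16 knockout embryos lay above the wildtype median.

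The 12 largest falls, by the same rule, held genes of different functions. Nupr1, a small nuclear protein induced by stress, had 12.4 to 219 CPM (median 59.3) across wildtype and 9.62 to 26.7 CPM (median 13.4) across knockout embryos (log2 fold change -2.02 ± 0.29 SE, edgeR adjusted p = 1.03e-05). No knockout embryo reached the wildtype median. Hif1an, the asparaginyl hydroxylase that inhibits hypoxia-inducible factor, had 94.5 to 289 CPM (median 138) across wildtype and 27.2 to 118 CPM (median 51.4) across knockout embryos (log2 fold change -1.58 ± 0.20 SE, edgeR adjusted p = 1.40e-06). Again no knockout embryo reached the wildtype median, though the ranges overlapped. Scd1, the stearoyl-CoA desaturase, had 11.9 to 158 CPM (median 61.5) across wildtype and 7.11 to 62.9 CPM (median 15.5) across knockout embryos (log2 fold change -1.60 ± 0.32 SE, edgeR adjusted p = 0.000734). Tollip, an adaptor of Toll-like receptor and ubiquitin pathways, had 23.5 to 149.6 CPM (median 59.8) across wildtype and 4.12 to 39.4 CPM (median 14.8) across knockout embryos (log2 fold change -1.72 ± 0.27 SE, edgeR adjusted p = 3.30e-05). For Scd1 1 knockout embryo and for Tollip none lay above the wildtype median.

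Dnah3, an axonemal dynein heavy chain, had the largest fall by this rule, with 0.505 to 64.7 CPM (median 16.9) across wildtype and 0 to 13.7 CPM (median 4.25) across knockout embryos (log2 fold change -2.25 ± 0.47 SE, edgeR adjusted p = 0.00108). Zfp947, a zinc finger gene, had 1.69 to 233 CPM (median 71.2) across wildtype and 0.374 to 74.2 CPM (median 7.04) across knockout embryos (log2 fold change -2.25 ± 0.55 SE, edgeR adjusted p = 0.00465). Of the non-zero Zfp947 values 96.9% were not whole numbers, so its reads are shared with other genes and its level is uncertain. Mest, which is imprinted and paternally expressed, had 3.80 to 67.6 CPM (median 20.2) across wildtype and 0 to 42.3 CPM (median 5.26) across knockout embryos (log2 fold change -1.47 ± 0.45 SE, edgeR adjusted p = 0.0203). Hmgn5, which binds nucleosomes, fell with a log2 fold change of -1.45 ± 0.36 (SE, adjusted p = 0.00465). Thada had a log2 fold change of -1.58 ± 0.44 (SE, adjusted p = 0.0109), Zmynd12 of -1.73 ± 0.52 (SE, adjusted p = 0.018), Zfp566, a zinc finger gene, of -1.42 ± 0.41 (SE, adjusted p = 0.0156) and Cml2 of -1.90 ± 0.61 (SE, adjusted p = 0.0281; all edgeR). Wildtype embryos varied widely for Cml2, from 3.10 to 268 CPM (median 8.53), and 8 of 16 knockout embryos were above that median. Leaving out wildtype replicate 11 ended the Cml2 call.

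A further 8 lower genes were taken by the smallest p after the 12 largest falls were set aside. Sap30bp had 269.6 to 538 CPM (median 358) across wildtype and 103 to 260.3 CPM (median 188) across knockout embryos (log2 fold change -0.99 ± 0.12 SE, edgeR adjusted p = 6.07e-07). Chchd2, a mitochondrial protein of the intermembrane space, had 743 to 1256 CPM (median 969.8) across wildtype and 467 to 711 CPM (median 547) across knockout embryos (log2 fold change -0.80 ± 0.10 SE, edgeR adjusted p = 7.53e-07). Both genes were lower in every knockout embryo than in any wildtype embryo. Bud31, a spliceosome component, had 399 to 675 CPM (median 475) across wildtype and 170.3 to 373 CPM (median 269.5) across knockout embryos (log2 fold change -0.82 ± 0.12 SE, edgeR adjusted p = 1.26e-05). Slu7, a factor of the second splicing step, had 263 to 469.7 CPM (median 312) across wildtype and 102 to 251 CPM (median 195) across knockout embryos (log2 fold change -0.83 ± 0.13 SE, edgeR adjusted p = 3.75e-05). These ranges did not overlap either. Cir1, a transcriptional corepressor, fell with a log2 fold change of -1.16 ± 0.16 (SE, adjusted p = 5.92e-06). Cops6, of the COP9 signalosome, fell by a log2 fold change of -1.02 ± 0.17 (SE, adjusted p = 6.82e-05), Fam58b of -1.32 ± 0.20 (SE, adjusted p = 2.09e-05) and Rnf125, a ubiquitin ligase, of -0.70 ± 0.11 (SE, adjusted p = 3.30e-05; all edgeR). No knockout embryo lay above the wildtype median for any of these 8 genes.

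**Figure D2:**
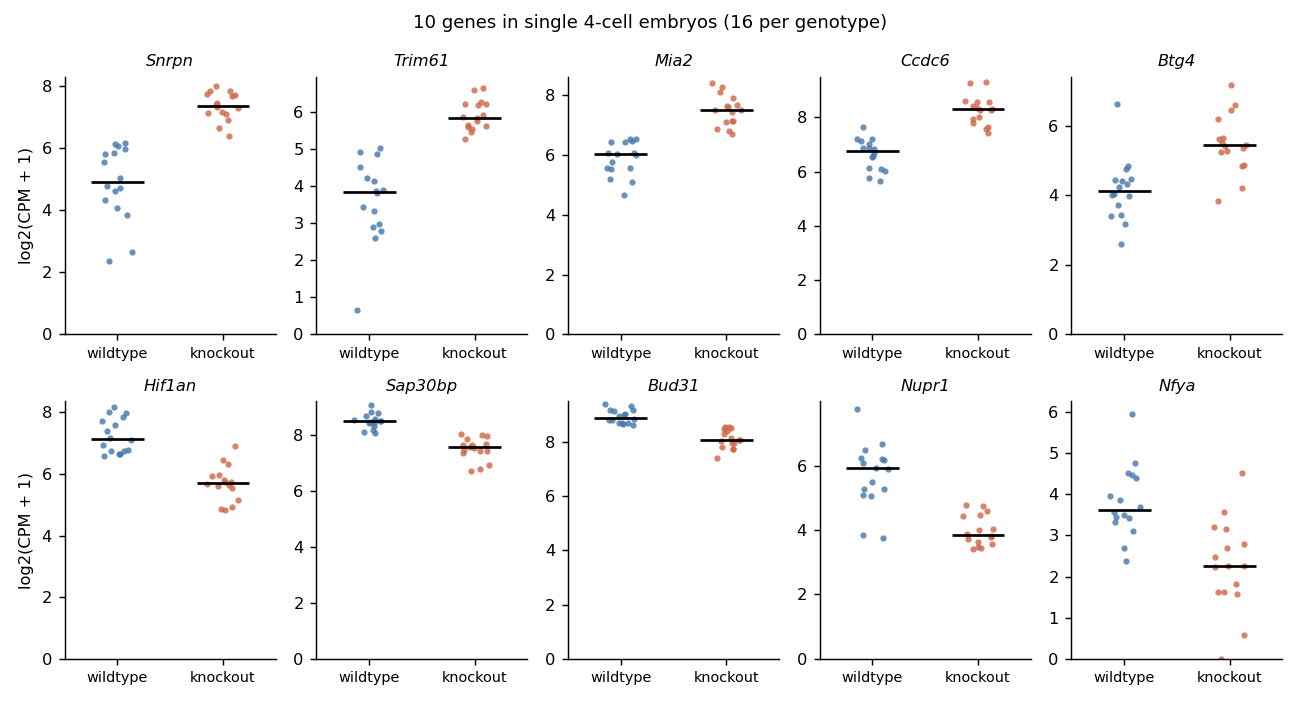
Each point is 1 embryo (16 wildtype in blue, 16 knockout in orange) and each black line a genotype median, on a log2(CPM + 1) axis that starts at 0. Snrpn, Trim61 and Mia2 are separated upwards and Sap30bp and Bud31 downwards, whereas Ccdc6, Btg4, Hif1an, Nupr1 and Nfya overlap.

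Genes were next grouped by how they behave in normal development, from wildtype eggs, 2-cell and 8-cell embryos alone, so that no 4-cell library took part. A gene was placed in the falling class at an edgeR adjusted p under 0.01 and a log2 fall of at least 2 from the 2-cell to the 8-cell stage (2991 genes, 33.6% of those tested), and in the rising class by the reverse (1725 genes, 19.4%). Of the falling class, 1204 passed the filter at the 4-cell stage, and 219 of them (18.2%) were higher and 26 (2.16%) lower in knockout, against 8.97% and 7.46% of all genes tested. Their median log2 fold change was 0.32. Of the rising class, 1676 passed, and 97 (5.79%) were higher and 210 (12.5%) lower, with a median of -0.12. The filter keeps low genes through the genotype in which they are higher, which touches the falling class more than the rising one. Of all 671 higher genes 32.6% were in the falling class, and of all 558 lower genes 37.6% in the rising class.

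Over all members, with no filter, the falling class held 3.57 to 7.95% of counts (median 4.27%) in wildtype and 4.29 to 7.32% (median 5.74%) in knockout 4-cell embryos. The wildtype median was exceeded in all 16 knockout embryos, none above the wildtype maximum, which is replicate 11, the library that stands apart. The means were 4.68 ± 1.16% and 5.78 ± 0.909% (SD, n = 16 each). The rising class held 34.7 to 44.6% (median 41.5%) in wildtype and 35.0 to 43.6% (median 39.4%) in knockout, and 4 of 16 knockout embryos exceeded the wildtype median. Transcripts that fall from the egg to the 8-cell stage (2968 genes, 33.9% of those tested) held 5.19 ± 0.767% in wildtype and 6.50 ± 0.728% in knockout, and 7 knockout embryos were above every wildtype embryo. Their 1251 tested members gave 229 higher and 28 lower, with a median log2 fold change of 0.32. Of the 479 genes that peak at the 2-cell stage, 123 were tested, and 3 (2.44%) were higher and 11 (8.94%) lower, with a median of -0.18. Over all 479 the share of counts showed no steady direction: the median was 0.346% in wildtype and 0.414% in knockout, 9 of 16 knockout embryos exceeded the wildtype median, and the means were 0.560 ± 0.564% and 0.477 ± 0.243% (SD, n = 16 each). The difference of these means, -0.083 percentage points, became 0.051 without wildtype replicate 11.

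Ccdc6, Strn, Cul1 and Ube2d2a, described above, belong to the falling class, and Mia2 to the class that falls from the egg. In the rising class, where most calls were lower, the higher exceptions were led by Pigx, of glycosylphosphatidylinositol synthesis, with 98.3 to 192 CPM (median 135) across wildtype and 171 to 343 CPM (median 217) across knockout embryos (log2 fold change 0.79 ± 0.12 SE, edgeR adjusted p = 1.88e-05). Rc3h2, a roquin-family protein that destabilises mRNAs, had 21.3 to 100.5 CPM (median 53.2) across wildtype and 91.8 to 181 CPM (median 129) across knockout embryos (log2 fold change 1.24 ± 0.18 SE, edgeR adjusted p = 1.76e-05). All 16 knockout embryos lay above the wildtype median for both. Txndc15 rose by 1.78 ± 0.27 (SE, adjusted p = 1.96e-05) and, among genes that rise from the egg to the 8-cell stage, Trappc13, of a vesicle tethering complex, by 1.20 ± 0.18 (SE, adjusted p = 1.50e-05). In the falling class the lower exceptions included Cs, citrate synthase, with 41.2 to 118 CPM (median 79.5) across wildtype and 19.2 to 93.7 CPM (median 47.8) across knockout embryos (log2 fold change -0.68 ± 0.18 SE, edgeR adjusted p = 0.00681). Sub1, a transcriptional coactivator, had a log2 fold change of -0.51 ± 0.13 (SE, adjusted p = 0.00522), Ccdc73 of -0.75 ± 0.20 (SE, adjusted p = 0.00911), and, among genes that fall from the egg, Cep83, a centriole protein, of -1.3 ± 0.24 (SE, adjusted p = 0.000295; all edgeR). Of the genes that peak at the 2-cell stage, Id2, an inhibitor of helix-loop-helix factors, had 6.33 to 99.6 CPM (median 18.2) across wildtype and 5.08 to 46.4 CPM (median 9.44) across knockout embryos (log2 fold change -1.22 ± 0.36 SE, edgeR adjusted p = 0.0176), and Knstrn, a kinetochore protein, rose by 1.05 ± 0.30 (SE, edgeR adjusted p = 0.0149).

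A position was then set for each embryo as the mean log2(CPM + 1) of the rising class minus that of the falling class, scaled to 0 at the wildtype 2-cell mean and 1 at the wildtype 8-cell mean. Wildtype 4-cell embryos lay at 0.79 to 0.96 (median 0.92) and knockout 4-cell embryos at 0.79 to 0.90 (median 0.86). The ranges overlapped, but no knockout embryo lay above the wildtype median, and 10 of 16 wildtype embryos lay above every knockout embryo. At the 8-cell stage, wildtype embryos lay at 0.99 to 1.02 and knockout embryos at 0.88 to 0.98, except for replicate 7; the wildtype 2-cell and 8-cell libraries defined the scale. The library labelled 8-cell knockout replicate 7 lay at -0.10, with 54.3% of its counts in the falling class, as in eggs and 2-cell embryos. It goes against its label, so the 8-cell calls and interactions are given below with and without it. The library labelled 8-cell knockout replicate 4, with 419 counts, is left out of all 8-cell values.

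**Figure D3:**
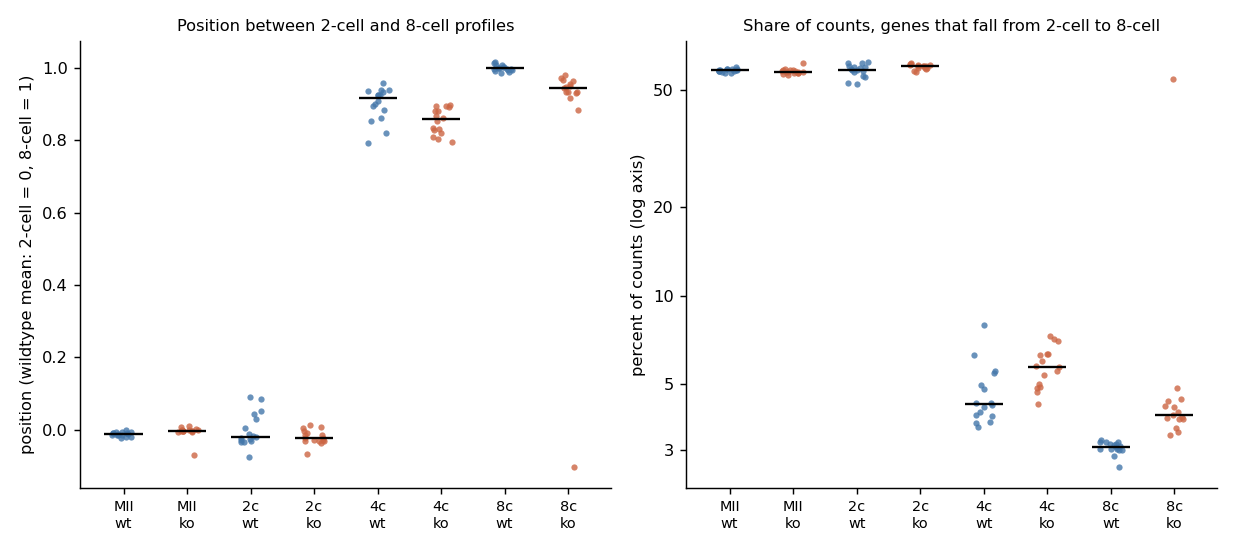
Left, the position of each library between the wildtype 2-cell (0) and 8-cell (1) profiles; right, the percent of counts in genes that fall from the 2-cell to the 8-cell stage, on a log axis. Points are libraries and black lines group medians; the 4-cell knockout median is 0.86 against 0.92 in wildtype, and 1 library labelled 8-cell knockout lies at the level of eggs.

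Among genes held by the egg, 5 of 23 tested maternal-effect and oocyte genes (21.7%) were higher and none lower in knockout, beside 8.97% and 7.46% of all genes. Their median log2 fold change was 0.57 against -0.0046 for all tested genes. DESeq2 called 6 of the 23 and limma voom 11. The filter keeps low genes through the genotype in which they are higher. This touches the list, of which 23 of 37 genes were tested, and the Nlrp4 and Nlrp9 list below, so their medians and calls are not free of it. Btg4, an adaptor of the CCR4-NOT deadenylase that clears maternal mRNA, had 5.0 to 97.3 CPM (median 16.5) across wildtype and 13.3 to 142 CPM (median 42.1) across knockout embryos (log2 fold change 1.33 ± 0.31 SE, edgeR adjusted p = 0.00313). Oog1, an oocyte gene, had 11 to 118 CPM (median 40.4) across wildtype and 30.3 to 249 CPM (median 95.1) across knockout embryos (log2 fold change 1.29 ± 0.29 SE, edgeR adjusted p = 0.00191). For both, 15 of 16 knockout embryos lay above the wildtype median, with overlap. Nlrp5, a subunit of the subcortical maternal complex, rose by 1.12 ± 0.35 on the log2 scale (SE, adjusted p = 0.025). Oosp1, an oocyte-secreted protein gene, rose by 1.68 ± 0.54 (SE, adjusted p = 0.0275), a call that ended without knockout replicate 15. Of 5 tested genes of the Nlrp4 and Nlrp9 families, 2 were higher and none lower (median 0.84), namely Nlrp4c and Nlrp9c, the latter by 1.46 ± 0.24 (SE, adjusted p = 9.76e-05; all edgeR). These families are multi-copy, so reads can be shared among members.

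Beside 8.97% and 7.46% of all genes, 5 (21.7%) of 23 tested genes of maternal mRNA decay were higher and 1 (4.35%) lower (median 0.17). Besides Btg4 these were Cnot6l, a catalytic subunit of CCR4-NOT, with 0.422 to 42.8 CPM (median 10.4) across wildtype and 8.25 to 88.9 CPM (median 30.3) across knockout embryos (log2 fold change 1.70 ± 0.39 SE, edgeR adjusted p = 0.00238). Dcp2, the decapping enzyme, had 5.06 to 32.6 CPM (median 14.8) across wildtype and 18.5 to 57.7 CPM (median 33.9) across knockout embryos (log2 fold change 1.08 ± 0.22 SE, edgeR adjusted p = 0.00075). The wildtype median was exceeded by all 16 knockout embryos for Dcp2 and by 15 for Cnot6l. Parn, a poly(A) ribonuclease, rose by 0.75 ± 0.18 on the log2 scale (SE, edgeR adjusted p = 0.00481). In wildtype, mean levels of Btg4, Cnot6l and Dcp2 were 8682, 716 and 330 CPM at 2 cells. At 8 cells they were 6.09, 11.5 and 7.98 CPM. The share of this list therefore also stands beside that of the falling class, of which 18.2% were higher.

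Promoters of a higher egg gene, another oocyte gene and a pair of lower genes are shown to set beside the CpG counts that follow (GRCm38.p6, RefSeq, same window, CpG in capitals). Btg4 lies at chr9:51115751-51116050 on the plus strand and holds 1 CpG, and Nlrp4c at chr7:6044911-6045210 on the plus strand with 7. The Btg4 window lies inside the span of its row in the deposited table (51105878 to 51119875), not at the start of that span. Hif1an lies at chr19:44562604-44562903 on the plus strand with 19 CpG, and Sap30bp at chr11:115933409-115933708 on the plus strand with 18.
Btg4: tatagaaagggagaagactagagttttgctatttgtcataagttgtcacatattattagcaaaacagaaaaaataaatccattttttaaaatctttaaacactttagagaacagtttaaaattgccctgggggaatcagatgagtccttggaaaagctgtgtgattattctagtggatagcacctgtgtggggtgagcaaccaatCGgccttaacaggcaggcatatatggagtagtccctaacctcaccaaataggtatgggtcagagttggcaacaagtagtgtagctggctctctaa
Nlrp4c: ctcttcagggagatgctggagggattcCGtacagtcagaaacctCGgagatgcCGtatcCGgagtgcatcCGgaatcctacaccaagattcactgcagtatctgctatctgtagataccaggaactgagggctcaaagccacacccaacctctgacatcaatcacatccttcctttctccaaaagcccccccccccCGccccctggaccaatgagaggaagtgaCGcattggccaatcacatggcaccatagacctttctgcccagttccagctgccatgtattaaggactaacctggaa
Hif1an: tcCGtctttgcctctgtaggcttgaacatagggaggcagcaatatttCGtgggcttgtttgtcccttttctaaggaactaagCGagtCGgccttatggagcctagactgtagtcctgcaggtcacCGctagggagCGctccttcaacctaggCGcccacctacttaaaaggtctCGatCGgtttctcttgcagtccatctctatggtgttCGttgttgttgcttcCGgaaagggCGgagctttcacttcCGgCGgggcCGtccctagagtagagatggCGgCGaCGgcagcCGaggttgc
Sap30bp: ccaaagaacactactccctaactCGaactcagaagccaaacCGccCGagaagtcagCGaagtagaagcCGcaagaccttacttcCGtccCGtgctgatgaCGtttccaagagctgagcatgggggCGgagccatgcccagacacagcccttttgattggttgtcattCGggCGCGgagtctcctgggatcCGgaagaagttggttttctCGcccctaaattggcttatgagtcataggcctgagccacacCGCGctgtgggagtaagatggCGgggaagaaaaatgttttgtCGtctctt

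A RefSeq promoter window was found for 5404 of 6399 tested genes (84.5%) that have a gene symbol other than a clone or provisional name and lie on a chromosome of that table. The first window listed was used. The median CpG count per 300 bases was 22 in all of them, 24 in 515 higher genes and 21 in 393 lower genes. Windows with under 5 CpG made up 5.35% of all, 8.74% of the higher genes and 3.82% of the lower genes. Among higher genes with a log2 fold change of at least 1 that share was 12.8% (29 of 227). Higher genes in the falling class had 12.6% (22 of 175) beside 8.57% (77 of 899) of all tested genes of that class, and higher genes outside it 6.76% (23 of 340). Higher genes thus held both more windows poor in CpG and a higher median, and no test was made of these shares. The letters CCAAT, the core of the NF-Y motif, occurred on either strand in 39.9% of all windows, 36.5% of higher and 39.7% of lower genes. Exon length differed as well: the median was 3450 bases in higher genes, 2654 in lower genes and 3064 in all tested genes.

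The regulators of lysine 9 methylation are of interest because Kdm4a removes that mark. Of 11 tested H3K9 methyltransferases and readers, 1 (9.09%) was higher and 3 (27.3%) lower in knockout, beside 8.97% and 7.46% of all genes. The median log2 fold change was -0.27. Suv39h2, a methyltransferase of constitutive heterochromatin, had 2.73 to 34.7 CPM (median 16.2) across wildtype and 13.3 to 53.6 CPM (median 31.2) across knockout embryos (log2 fold change 1.01 ± 0.29 SE, edgeR adjusted p = 0.014). Atf7ip, a cofactor of Setdb1, had 11.4 to 59.4 CPM (median 24.0) across wildtype and 2.48 to 33.2 CPM (median 10.2) across knockout embryos (log2 fold change -1.04 ± 0.30 SE, edgeR adjusted p = 0.0146). Suv39h2 was above the wildtype median in 14 of 16 knockout embryos and Atf7ip in 3. Setdb1, the methyltransferase that acts at retrotransposons, fell with a log2 fold change of -0.56 ± 0.18 (SE, adjusted p = 0.0244). Trim28, the corepressor that recruits Setdb1, fell with -0.81 ± 0.27 (SE, adjusted p = 0.0378; both edgeR), and its call ended in 11 of 32 fits that left out 1 embryo. For the lysine 36 mark, 0 of 9 tested genes were called by edgeR, at a median of 0.21; none reached an unadjusted p under 0.05, DESeq2 called 0 and limma voom called 1. Setd2, the main enzyme that trimethylates lysine 36, had 204 to 537 CPM (median 358) across wildtype and 207 to 641 CPM (median 369) across knockout embryos, a log2 fold change of 0.21 ± 0.15 (SE) and an adjusted p of 0.373. Nsd1, which dimethylates lysine 36, had a log2 fold change of 0.15 ± 0.18 (SE) and an adjusted p of 0.629.

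Of 14 tested Polycomb genes, 4 (28.6%) were higher and 1 (7.14%) lower (median 0.08), beside 8.97% and 7.46% of all genes. Bmi1, a subunit of Polycomb repressive complex 1, had 31.6 to 369.8 CPM (median 104) across wildtype and 146 to 578 CPM (median 267) across knockout embryos (log2 fold change 1.23 ± 0.28 SE, edgeR adjusted p = 0.00271). Jarid2, a cofactor of complex 2, had 4.17 to 31.1 CPM (median 10.7) across wildtype and 11.4 to 35.0 CPM (median 22.7) across knockout embryos (log2 fold change 0.89 ± 0.24 SE, edgeR adjusted p = 0.0102). All 16 knockout embryos lay above the wildtype median for both. Rnf2, the ubiquitin ligase of complex 1, rose by 0.68 ± 0.19 (SE, adjusted p = 0.0109). L3mbtl2, of a non-canonical complex 1, fell with a log2 fold change of -1.05 ± 0.25 (SE, adjusted p = 0.00347; both edgeR). Mean Bmi1 in wildtype went from 1127 CPM at 2 cells to 32.6 CPM at 8 cells, and Jarid2 from 46.0 to 29.8 CPM. For such falling genes the share to set beside is that of the falling class, of which 18.2% were higher. Among 11 tested regulators of H3K4 methylation, 2 (18.2%) were higher and none lower, Ash2l by 0.70 ± 0.18 (SE, adjusted p = 0.008) and Dpy30 by 0.51 ± 0.15 (SE, adjusted p = 0.0192, both edgeR), while the median of the list was -0.17 (0.04 with limma voom). Both are core subunits shared by the methyltransferase complexes. Of 14 tested genes in the SWI/SNF list, which does not hold Phf10, Arid2 was the 1 higher and Brd9 the 1 lower. These shares, 7.14% each, were near those of all genes. Brd9 had a log2 fold change of -0.58 ± 0.16 (SE, edgeR adjusted p = 0.00907).

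Dnmt3l, the cofactor of de novo DNA methylation, was low, with 0 to 9.60 CPM (median 3.54) across wildtype and 1.58 to 22.1 CPM (median 14.5) across knockout embryos, and rose by 1.46 ± 0.38 on the log2 scale (SE, edgeR adjusted p = 0.00688). It was the 1 higher and Trim28 the 1 lower gene (11.1% each) of 9 tested in DNA methylation and its protection (median -0.28, 0.10 with limma voom). In a list this short 1 gene is more than the 8.97% or the 7.46% of all genes. Asf1a, a histone chaperone, had 14.1 to 197 CPM (median 30.8) across wildtype and 47.4 to 365 CPM (median 101) across knockout embryos (log2 fold change 1.62 ± 0.33 SE, edgeR adjusted p = 0.000789). Nap1l1, another histone chaperone, had 322 to 971 CPM (median 672) across wildtype and 749.8 to 1231 CPM (median 951) across knockout embryos (log2 fold change 0.55 ± 0.13 SE, edgeR adjusted p = 0.00409). The whole knockout group of 16 lay above the wildtype median for both. They were the 2 higher (11.8%) of 17 genes tested in the list of histones and chaperones, with none lower (median 0.03). Of 13 tested paternally expressed imprinted genes, 3 (23.1%) were higher, all at the Snrpn locus, and 2 (15.4%) were lower (median 0.37). The lower ones were Mest and Mcts2, a translation factor gene, which had 45.5 to 106 CPM (median 72.2) across wildtype and 9.95 to 53.1 CPM (median 36.3) across knockout embryos (log2 fold change -1.0 ± 0.18 SE, edgeR adjusted p = 0.000195). No knockout embryo reached the wildtype median for Mcts2. Of 6 tested maternally expressed imprinted genes, 1 (16.7%), Commd1, was higher by 1.19 ± 0.36 (SE, edgeR adjusted p = 0.0197) and none was lower (median 0.22).

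Of 23 tested transcription factors of genome activation and pluripotency, 7 (30.4%) were lower and 1 (4.35%) higher, with a median of -0.30, beside 7.46% and 8.97% of all genes. Nfya, the DNA-binding subunit of NF-Y, had 4.22 to 61.3 CPM (median 11.4) across wildtype and 0 to 22.1 CPM (median 3.79) across knockout embryos (log2 fold change -1.62 ± 0.41 SE, edgeR adjusted p = 0.00604). Nfyb, its histone-fold partner, had 271 to 855 CPM (median 546) across wildtype and 188 to 578 CPM (median 356) across knockout embryos (log2 fold change -0.63 ± 0.16 SE, edgeR adjusted p = 0.00604). Nr5a2, an orphan nuclear receptor, had 88.9 to 225 CPM (median 128) across wildtype and 46.0 to 116 CPM (median 93.0) across knockout embryos (log2 fold change -0.66 ± 0.15 SE, edgeR adjusted p = 0.00268). Above the wildtype median lay 1 knockout embryo for Nfya, 2 for Nfyb and none for Nr5a2, with overlap of the genotypes for each. Zfp281, a zinc finger factor of pluripotent cells, had 142 to 582 CPM (median 313) across wildtype and 57.3 to 286 CPM (median 172) across knockout embryos (log2 fold change -0.84 ± 0.21 SE, edgeR adjusted p = 0.00481). Of 13 tested transient 2-cell genes, 2 (15.4%) were lower and none higher (median -0.46). DESeq2 and limma voom each called 1 of the 13, with medians of -0.34 and -0.32. The 2 were Tdpoz2 and Cml2, whose call ended without wildtype replicate 11. Tdpoz2 had 10.9 to 223 CPM (median 106) across wildtype and 15.5 to 76.8 CPM (median 47.2) across knockout embryos (log2 fold change -1.28 ± 0.30 SE, edgeR adjusted p = 0.00335). Tdpoz genes are multi-copy, and 59.4% of the non-zero Tdpoz2 values were not whole.

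Compaction and polarity genes and trophectoderm and Hippo genes form short lists, in which 1 gene is more than the 7.46% called lower or the 8.97% called higher among all genes. Epcam, a cell adhesion molecule, had 13.5 to 107 CPM (median 44.6) across wildtype and 69.6 to 256 CPM (median 133) across knockout embryos (log2 fold change 1.52 ± 0.23 SE, edgeR adjusted p = 2.05e-05), and Itgb1, the integrin beta subunit, had 4.14 to 57.1 CPM (median 19.5) across wildtype and 7.78 to 102 CPM (median 40.8) across knockout embryos (log2 fold change 0.93 ± 0.31 SE, edgeR adjusted p = 0.0316). They were the 2 higher genes of 11 tested (none lower, median 0.52), and all 16 knockout embryos were above the wildtype median for Epcam and 14 for Itgb1. The Itgb1 call ended in 3 of 32 fits that left out 1 embryo. Of 10 tested trophectoderm and Hippo pathway genes, 3 were higher and none lower: Wwtr1, the transcriptional coactivator TAZ, by 1.54 ± 0.37 (SE, adjusted p = 0.00375), Lats1, its inhibitory kinase, by 1.34 ± 0.32 (SE, adjusted p = 0.00389), and Mob1b, a cofactor of that kinase, by 0.54 ± 0.16 (SE, adjusted p = 0.0157; all edgeR). The median of that list was -0.07.

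None of 77 tested cytosolic ribosomal proteins was higher and 8 (10.4%) were lower (median -0.25), beside 8.97% and 7.46% of all genes. Of the 77, 73 had a negative log2 fold change and 31 an unadjusted p under 0.05 (edgeR). The number called depended on the tool, with 7 by DESeq2 and 28 by limma voom. Rpl38, a protein of the large subunit, had 119 to 432 CPM (median 324) across wildtype and 136 to 279 CPM (median 201) across knockout embryos (log2 fold change -0.64 ± 0.14 SE, edgeR adjusted p = 0.00172). Most ribosomal protein genes have processed pseudogenes, so their reads may be shared. Of 53 tested ribosome biogenesis genes, 2 were higher and 11 lower (median -0.27). Nip7 had 886 to 1412 CPM (median 1183) across wildtype and 534 to 1121 CPM (median 856) across knockout embryos (log2 fold change -0.51 ± 0.11 SE, edgeR adjusted p = 0.00113), and no knockout embryo reached the wildtype median. Noc3l fell with a log2 fold change of -0.71 ± 0.14 (SE, adjusted p = 0.000734) and Exosc3, of the RNA exosome, with -0.50 ± 0.11 (SE, adjusted p = 0.00113). Wdr12, a 60S assembly factor, moved the other way, by 0.63 ± 0.13 (SE, adjusted p = 0.00115; all edgeR).

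Of 42 tested translation initiation genes, 7 (16.7%) were lower and 1 (2.38%) higher (median -0.06), beside 7.46% and 8.97% of all genes. The higher one was Eif4ebp1, which represses cap-dependent initiation, with 1.57 to 25.2 CPM (median 17) across wildtype and 15.1 to 64.7 CPM (median 31.7) across knockout embryos (log2 fold change 1.29 ± 0.27 SE, edgeR adjusted p = 0.00133). Eif4h, a helicase cofactor, had 40.7 to 111 CPM (median 72.2) across wildtype and 24.1 to 65.9 CPM (median 42.6) across knockout embryos (log2 fold change -0.80 ± 0.16 SE, edgeR adjusted p = 0.000561). Eif2b1, a subunit of the guanine exchange factor of eIF2, fell with a log2 fold change of -0.39 ± 0.10 (SE, edgeR adjusted p = 0.00524). For Eif4h and Eif2b1 no knockout embryo lay above the wildtype median. Of 73 tested mitochondrial ribosomal proteins, 10 were lower and 2 higher (median -0.12), and of 69 nuclear genes of oxidative phosphorylation 5 were lower and 4 higher (median -0.05). The 13 mitochondrially encoded mRNAs gave no call in either direction (median 0.12). None of them reached an unadjusted p under 0.05, and neither DESeq2 nor limma voom called any (0 of 13 each). Of these, mt-Cytb, a subunit of complex III, had a log2 fold change of 0.11 ± 0.13 (SE) and an adjusted p of 0.618.

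Of 41 tested spliceosome genes, 6 (14.6%) were lower and 1 (2.44%) higher (median -0.14), beside 7.46% and 8.97% of all genes. Sf3a1, a subunit of the U2 particle, had 21.1 to 106 CPM (median 69.9) across wildtype and 21.8 to 54.7 CPM (median 33.5) across knockout embryos (log2 fold change -0.92 ± 0.20 SE, edgeR adjusted p = 0.00149). Sf3b1, of the same particle, fell with a log2 fold change of -0.47 ± 0.14 (SE, adjusted p = 0.0157). Srsf7, a splicing regulator rich in arginine and serine, was the higher one at 0.72 ± 0.22 (SE, adjusted p = 0.018; both edgeR). Of 43 tested genes of the RNA polymerase II machinery, 7 (16.3%) were lower and 2 (4.65%) higher (median -0.06). Among the lower were Ccnh and Mnat1, subunits of the kinase of TFIIH, with log2 fold changes of -0.76 ± 0.21 (SE, adjusted p = 0.0103) and -0.73 ± 0.19 (SE, adjusted p = 0.00709). Tbp, the TATA-binding protein, had 219.9 to 519 CPM (median 368) across wildtype and 142 to 343 CPM (median 271) across knockout embryos (log2 fold change -0.46 ± 0.13 SE, edgeR adjusted p = 0.0112). Gtf2a1, a subunit of TFIIA, which stabilises Tbp on DNA, rose, with 13.8 to 51.9 CPM (median 26.3) across wildtype and 28.6 to 106 CPM (median 68.1) across knockout embryos (log2 fold change 1.26 ± 0.19 SE, edgeR adjusted p = 1.76e-05). All 16 knockout embryos lay above the wildtype median for Gtf2a1 and none for Tbp.

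Of 36 tested ubiquitin-conjugating enzymes and cullins, 9 (25%) were higher and 2 (5.56%) lower, beside 8.97% and 7.46% of all genes. The median of the list was 0.05 and 21 of the 36 had a positive log2 fold change. Ube2e3 had 176 to 873 CPM (median 521) across wildtype and 709 to 1877 CPM (median 986) across knockout embryos (log2 fold change 1.06 ± 0.19 SE, edgeR adjusted p = 0.000194). Ube2r2, the conjugating enzyme that works with SCF ligases, had 0 to 9.59 CPM (median 3.34) across wildtype and 3.18 to 36.4 CPM (median 14.8) across knockout embryos (log2 fold change 2.08 ± 0.35 SE, edgeR adjusted p = 0.000105). Each of the 16 knockout embryos lay above the wildtype median for Ube2e3 and 15 for Ube2r2. Of 36 tested proteasome genes, 4 were higher and 1 lower (median 0.08). Psma4, of the catalytic core, rose by 0.63 ± 0.15 on the log2 scale (SE, adjusted p = 0.00428), and Psmd6, of the regulatory particle, fell with a log2 fold change of -0.56 ± 0.13 (SE, adjusted p = 0.00237; both edgeR). Of 23 tested chaperone genes, 5 were higher and 2 lower (median 0.06). Hsp90b1, the chaperone of the endoplasmic reticulum, had 41.0 to 308 CPM (median 90.1) across wildtype and 116 to 374 CPM (median 203) across knockout embryos (log2 fold change 0.98 ± 0.22 SE, edgeR adjusted p = 0.00253), and Hsph1, a cytosolic one, had 80.8 to 392 CPM (median 217) across wildtype and 68.9 to 239 CPM (median 115) across knockout embryos (log2 fold change -0.90 ± 0.20 SE, edgeR adjusted p = 0.0017).

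Of 35 tested spindle and segregation genes, 3 (8.57%) were higher and 3 (8.57%) lower (median -0.03), shares near the 8.97% and 7.46% of all genes. Bub1, a kinase of the spindle checkpoint, had 37.8 to 157 CPM (median 88.9) across wildtype and 106 to 301 CPM (median 171) across knockout embryos (log2 fold change 0.97 ± 0.20 SE, edgeR adjusted p = 0.000855). Its partner Bub1b rose by 0.84 ± 0.26 (SE, adjusted p = 0.0214), a call that ended without knockout replicate 12, whereas Mad2l1, another checkpoint protein, fell with a log2 fold change of -0.47 ± 0.14 (SE, adjusted p = 0.0204) and Birc5, of the chromosomal passenger complex, with -0.41 ± 0.10 (SE, adjusted p = 0.0053; all edgeR). Of 34 tested replication genes, 3 were higher and 1 lower (median -0.01, which turns positive, at 0.0030 and 0.0058, with RLE size factors and DESeq2). Of 20 tested genes of DNA damage and p53, 2 were higher and none lower (median 0.20). Mdm4, an inhibitor of p53, had 295 to 744 CPM (median 380.3) across wildtype and 441 to 1396 CPM (median 785) across knockout embryos (log2 fold change 1.01 ± 0.15 SE, edgeR adjusted p = 2.46e-05), and all 16 knockout embryos lay above the wildtype median. Chek2, a checkpoint kinase, rose by 0.41 ± 0.14 (SE, edgeR adjusted p = 0.0445), but its call ended in 18 of 32 fits that left out 1 embryo. Of 10 tested apoptosis genes, 2 were lower and none higher (median -0.02): Cycs, cytochrome c, with a log2 fold change of -0.54 ± 0.14 (SE, adjusted p = 0.00794) and Diablo, an inhibitor of IAP proteins, with -0.44 ± 0.13 (SE, adjusted p = 0.0178; both edgeR). Of 21 tested genes in the list of glycolysis and pyruvate, the 1 lower was Pgd, an enzyme of the pentose phosphate pathway, with -0.86 ± 0.22 (SE, edgeR adjusted p = 0.00755). None was higher (median 0.18).

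**Figure D4:**
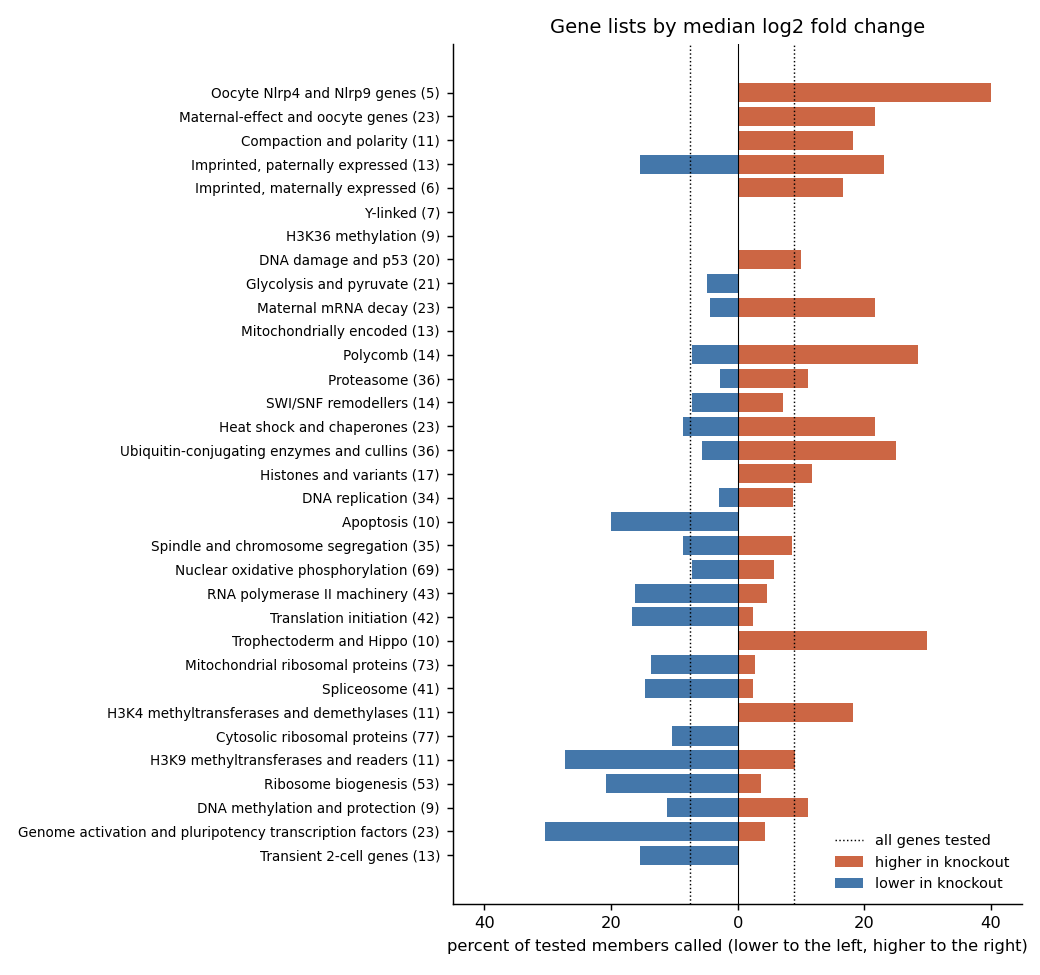
Bars give the percent of tested members of each list (number tested in parentheses) called higher in knockout to the right and lower to the left, ordered by the median log2 fold change; dotted lines mark the 8.97% and 7.46% of all 7478 genes. Oocyte lists lie at the top and transcription factor, ribosome biogenesis and transient 2-cell lists at the bottom.

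On the X chromosome 26 of 252 tested genes (10.3%) were higher and 6 (2.38%) lower, beside 8.97% and 7.46% of all genes, with a median log2 fold change of 0.14. In this fit, without a covariate, the higher share was near that of all genes, and that of chromosome 14 was larger, at 13.1%. With the Y-linked level of each embryo as a covariate, 35 X-linked genes (13.9%) were higher and 9 (3.57%) lower, with a median of 0.22. Over all 7478 genes that fit called 685 higher and 564 lower, so the X-linked higher share was then above that of all genes. Within 5 Mb of Kdm4a on chromosome 4, 53 genes were tested, of which 5 (9.43%) were higher and 9 (17%) lower. Ebna1bp2, a ribosome biogenesis factor, had 439 to 836 CPM (median 641) across wildtype and 261 to 622 CPM (median 394) across knockout embryos (log2 fold change -0.61 ± 0.12 SE, edgeR adjusted p = 0.000415). Tesk2, a kinase, had 27.4 to 69.7 CPM (median 40.3) across wildtype and 31.3 to 125 CPM (median 72.6) across knockout embryos (log2 fold change 0.81 ± 0.16 SE, edgeR adjusted p = 0.000833). Cdc20, the activator of the anaphase-promoting complex, fell with a log2 fold change of -0.59 ± 0.19 (SE, edgeR adjusted p = 0.0235). Flanking DNA carried along with the knockout allele cannot be told apart from the genotype here.

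The 4-cell changes were set against those at the other stages, which were fitted on their own libraries. At the 8-cell stage 11.6% of 7219 tested genes were called, and 12.4% of 7301 without replicate 7. Of the 671 genes higher at the 4-cell stage, 629 were tested at the 8-cell stage without replicate 7, 532 of them (84.6%) had the same sign, 162 were called the same way and 1 the opposite way. The 162 are 24.1% of the 4-cell calls and 32% of the 8-cell calls in that direction. With replicate 7, 207 were called the same way. Of the 558 lower genes, 516 were tested, 409 (79.3%) had the same sign, 128 were called the same way and 3 the opposite way, which is 22.9% of the 4-cell calls and 32.3% of the 8-cell calls. With replicate 7 only 66 were called.

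Backwards in time the overlap was smaller in number. At the 2-cell stage, where 17.3% of 8728 tested genes were called, 317 of 625 tested 4-cell higher genes (50.7%) had the same sign, 48 were called the same way and 41 the opposite way. Of 390 tested lower genes 227 (58.2%) had the same sign, 64 were called the same way and 28 the opposite way. In eggs, where 12% of 7680 tested genes were called, 331 of 582 higher genes (56.9%) and 176 of 326 lower genes (54.0%) had the same sign.

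Single genes followed different courses. Jak2 was higher by 1.97 ± 0.28 at the 4-cell and 1.68 ± 0.30 at the 8-cell stage (log2, SE; edgeR adjusted p = 0.000505 at 8 cells without replicate 7), and Arid2 by 1.75 ± 0.26 at 8 cells (adjusted p = 8.48e-05). Hif1an was lower at both stages, with -1.14 ± 0.19 at 8 cells (adjusted p = 0.000211). The Snrpn rise belonged to the 4-cell stage: the log2 fold change was 0.16 ± 0.12 at 2 cells (adjusted p = 0.374) and 0.11 ± 0.16 at 8 cells (adjusted p = 0.68; all edgeR). At 8 cells Snrpn had 193 ± 53.2 CPM in wildtype (SD, n = 16) and 212 ± 62.2 CPM in knockout without replicate 7 (n = 14). Ube2e3 went from a rise at 4 cells to a fall at 8 cells, with -0.55 ± 0.12 (edgeR adjusted p = 0.00197).

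**Figure D5:**
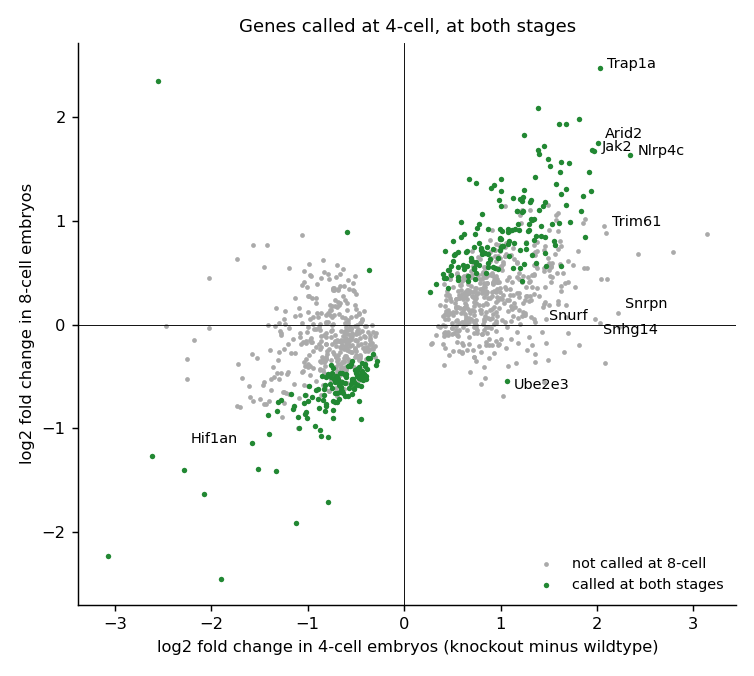
Each point is a gene called in 4-cell embryos and tested in 8-cell embryos, with its log2 fold change at the 4-cell stage on the x axis and at the 8-cell stage (without the library labelled knockout replicate 7) on the y axis; green points were called at both stages. Most points lie in the quadrants of equal sign, with Snrpn, Snurf and Snhg14 near 0 on the 8-cell axis.

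The difference between stages was tested as the interaction of genotype and stage. From 2 to 4 cells, 15.5% of 10766 tested genes were called, with the genotype effect more positive at 4 cells for 1231 and more negative for 434. From 4 to 8 cells 2.73% of 8822 genes were called, 188 and 53, and 1.86% of 8908 without replicate 7, 85 and 81. Both interactions use the same 4-cell libraries. Snrpn was called in each: its effect was higher at 4 cells than at 2 by 2.07 ± 0.31 on the log2 scale (SE, adjusted p = 3.66e-06) and lower at 8 cells than at 4 by a log2 difference of -2.11 ± 0.33 without replicate 7 (SE, adjusted p = 4.32e-05; edgeR).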

How the data were processed

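Per the labels' protocols, single embryos were amplified with a SMART-Seq kit and made into Nextera XT libraries. Per the submitters' processing notes, Trimmomatic 0.32, STAR 2.5.1a and featureCounts 1.5.1 were used with mm10. Whether counting used the strand was not given in the sources used here. As values, the authors deposited estimated counts per gene, and 31.97% of the non-zero values in 4-cell libraries were not whole, as when reads with several positions are divided. Gene symbols and positions are those of the deposited table.

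Counts were rounded to whole numbers. The library labelled 8-cell knockout replicate 4, with 419 counts, was left out. Genotypes were compared with edgeR 4.0.16 in R 4.3.3 (quasi-likelihood F test, robust dispersion, TMM factors, filterByExpr by genotype, Benjamini-Hochberg adjustment over the genes tested, threshold 0.05), using only the stage concerned, or the 4 groups of 2 stages for interactions. The step was tested on simulated data. Log2 fold changes are knockout minus wildtype, ± SE. CPM are rounded counts over the library total. Libraries were thinned to 1000000 counts for genes detected; permutation tests used 100000 resamples. DESeq2 1.42.0, limma 3.58.1 (voom with quality weights), RLE factors, other filters, covariates, a block on the replicate number, replicates 1 to 8 or 9 to 16 alone and each embryo left out were alternatives. Tables and figures were made in Python 3.11.15, with matplotlib 3.10.9 and scipy 1.17.1 beside numpy 2.4.6 and pandas 2.3.3.

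The 37 gene lists and the rules for named genes were chosen with earlier results of these data known. Named were Kdm4a; the 12 genes each way with the largest log2 fold change and the next 8 each way by p, called, of at least 20 CPM in the higher genotype and without a clone or provisional name; up to 4 called members of each list by p, or 2 by level where none was called; 4 each way of each stage class and interaction; and called genes within 5 Mb of Kdm4a. From these sets the text describes those it groups. No pair of libraries within a genotype lay within sampling noise (chi-square per gene of at least 15.0).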

Additional observations from a re-analysis of the deposited data

Results flagged for a closer look

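The genotype effect differed between the 2-cell and 4-cell stages, by the interaction test of edgeR, for the genes named by the rule on interactions and for the Snrpn locus. More positive at 4 cells than at 2, by log2 differences with SE, were Naa30, an N-terminal acetyltransferase subunit (1.75 ± 0.23, adjusted p = 5.46e-07), Hmgb1, a chromatin protein (1.09 ± 0.14, adjusted p = 5.46e-07), Ube2d2a (1.13 ± 0.15, adjusted p = 9.05e-07) and Nckap1 (1.31 ± 0.18, adjusted p = 1.18e-06). In 4-cell embryos Hmgb1 had 1599 to 2544 CPM (median 1995) across wildtype and 2385 to 3536 CPM (median 2765) across knockout embryos, with all 16 knockout embryos above the wildtype median. At the Snrpn locus the differences were 2.07 ± 0.31 for Snrpn (adjusted p = 3.66e-06), 1.83 ± 0.33 for Snurf (adjusted p = 9.75e-05) and 2.31 ± 0.47 for Snhg14 (adjusted p = 0.000475). More negative at 4 cells were Rpl17, a ribosomal protein (-1.20 ± 0.17, adjusted p = 1.18e-06), Fubp1, which binds single-stranded DNA upstream of Myc (-1.82 ± 0.27, adjusted p = 3.66e-06), Grpel1, a mitochondrial co-chaperone (-1.20 ± 0.18, adjusted p = 5.08e-06) and Eri1, an exoribonuclease of histone mRNA (-1.60 ± 0.25, adjusted p = 1.17e-05). Fubp1 at 4 cells had 95.5 to 382 CPM (median 188) across wildtype and 21.3 to 212 CPM (median 80.8) across knockout embryos.

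From 4 to 8 cells the effect became more negative, by log2 differences with SE over all libraries, for Snrpn (-2.15 ± 0.33, adjusted p = 4.65e-05), Snhg14 (-2.01 ± 0.35, adjusted p = 0.000477), Snurf (-2.02 ± 0.35, adjusted p = 0.000477), Ube2e3 (-1.70 ± 0.26, adjusted p = 4.65e-05) and Atp13a3, a P-type ATPase (-0.78 ± 0.17, adjusted p = 0.00772). Without the library labelled 8-cell knockout replicate 7 they were -2.11 ± 0.33 for Snrpn, -1.94 ± 0.34 for Snhg14, -2.02 ± 0.35 for Snurf, -1.62 ± 0.23 for Ube2e3 and -0.78 ± 0.17 for Atp13a3, with adjusted p of 4.32e-05, 0.000303, 0.000268, 7.90e-06 and 0.00848. The effect became more positive for the oocyte genes Tcl1b4 (8.47 ± 1.51, adjusted p = 0.000719), Zbed3 (6.82 ± 1.32, adjusted p = 0.00301), Obox2 (6.69 ± 1.3, adjusted p = 0.00301) and Obox1 (6.37 ± 1.27, adjusted p = 0.00355). Without that library these were 1.98 ± 0.91 for Tcl1b4, 0.45 ± 0.68 for Zbed3, 0.71 ± 0.68 for Obox2 and 1.0 ± 0.72 for Obox1, with adjusted p of 0.297, 0.827, 0.696 and 0.572, so none of these 4 was called.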

How the results depend on the processing

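The 671 higher and 558 lower 4-cell genes came to 690 and 536 with RLE factors, 941 and 741 with DESeq2, 862 and 763 with limma voom, and 618 and 499 with a filter of 10 CPM in 16 libraries. Without a filter (26275 genes) they were 1482 and 1188, with all 8 groups in one fit 1285 and 795, and with a log2 fold change of at least 1 they were 300 and 154. Replicates 1 to 8 gave 76 and 64 and replicates 9 to 16 gave 258 and 154, with fewer embryos in each fit; 1212 and 1200 of the 1229 called genes kept their sign. Leaving out 1 embryo gave 611 to 766 higher and 508 to 602 lower genes.

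With the replicate number as a block the counts were 626 and 498. Same-numbered embryos correlated at -0.16 to 0.16 in their deviations, above 0.1 in 4 of 16 pairs, and no wildtype embryo correlated best with the knockout embryo of its own number, so the numbers do not pair the embryos. The Kdm4a difference, -2.82 CPM, was -2.95 CPM in replicates 1 to 8 (exact permutation p = 0.0928; two-sided).

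From 2 to 4 cells, replicates 1 to 8 gave 401 more positive and 236 more negative interactions, and replicates 9 to 16 gave 284 and 45. From 4 to 8 cells, the 188 and 53 became 401 and 83 with RLE factors, 751 and 279 without a filter, 73 and 122 with limma voom, 3 and 2 in replicates 1 to 8 and 1 and 6 in replicates 9 to 16. Without 8-cell knockout replicate 7, a choice made after seeing the data, they were 85 and 81, and the 8-cell lower genes went from 218 to 396. The class shares moved by less than 1 SD of the wildtype embryos under every alternative run, among them leaving out 4-cell wildtype replicate 11, also chosen after seeing the data. That spread is wide: the rising class, lower in knockout by a difference of -1.45 percentage points, came to -0.64 in replicates 1 to 8 and -2.26 in replicates 9 to 16. The share of 2-cell peak genes changed direction, from -0.083 to 0.033 in replicates 1 to 8 and 0.051 without replicate 11.

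With limma voom some list medians changed sign. Those near 0 were trophectoderm and Hippo (-0.07 to 0.02), histones (0.03 to -0.02) and apoptosis (-0.02 to 0.06). Larger ones were H3K4 methylation (-0.17 to 0.04), DNA methylation (-0.28 to 0.10) and Y-linked genes (0.22 to -0.16). The sign of a list median of that size can therefore rest on the tool. Of 159 called genes named by the rules or added, 145 kept the call whichever embryo was left out. Levels under about 10 CPM rest on few counts per embryo. The cause of these shifts was not tested.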
